A study of Mus musculus with 6 samples.

Results

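The genes described here encode the matrix metalloproteinases (MMPs), the ADAM and ADAMTS proteases, the ADAMTS-like proteins and the tissue inhibitors of metalloproteinases (TIMPs). Members were the protein-coding rows of the deposited table whose names begin with Mmp, Adam, Adamts or Timp and a number, or with Adamtsl. The rule gave 85 of 45706 rows, and 50 of the 85 had a mean of at least 10 over the 6 hearts and were tested. Hearts of C57BL6/J mouse embryos were profiled by poly(A) RNA sequencing; the embryonic day is not in the labels. The 3 control hearts (aMyHC_Ctrl) had the genotype RBPMS flox/flox RBPMS2 flox/flox. The 3 knockout hearts (aMyHC_RBPMS-2) carried the same floxed alleles, which Cre recombinase can delete, with the transgene aMyHC Cre, whose alpha-myosin heavy chain promoter is active in cardiomyocytes. The comparison asks how the heart's transcripts differ once cardiomyocytes lose the RNA-binding proteins RBPMS and RBPMS2. Every knockout carried Cre and no control did, so the transgene and the deletion cannot be told apart. Cells other than cardiomyocytes are not targeted by that promoter, and their RNA is in the same samples.

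The deposited values are whole numbers that had been scaled per heart, so their totals were close to equal, from 17861435 to 18439201. The spacing of the low values gave estimated depths of 12957977 to 25837261 reads per heart, and 1 read was worth 0.6921 to 1.423 units. Rbpms was at 6998, 3868 and 7656 in controls 1 to 3, against 1134, 1117 and 852 in knockouts 1 to 3. Rbpms2 was at 1711, 1362 and 1998 (controls) against 879, 1003 and 911 (knockouts), so both targeted genes were lower in each heart labelled as a knockout (log2 -2.53, SE 0.22, and -0.84, SE 0.12). The sum of 8 cardiomyocyte markers, which include Tnnt2, Actn2 and Ttn, was 703953 to 753701 in the controls and 636042 to 691632 in the knockouts. The labelled tissue therefore carried its defining markers in all 6 hearts.

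These proteases cut the proteins between cells and at the cell surface. MMPs degrade collagens, gelatin, laminins and fibronectin, membrane-type MMPs do so while anchored to the cell, ADAM proteins release the outer parts of membrane proteins, and ADAMTS proteins cut proteoglycans such as versican and trim procollagens. ADAMTS-like proteins resemble the ADAMTS family but have no protease domain, and TIMPs block the proteases by binding their zinc. In the embryonic heart the matrix between endocardium and myocardium, called cardiac jelly, is rich in versican and hyaluronan and is cleared as the chamber wall matures.

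The catalytic proteases share a site in which 3 histidines hold a zinc ion and a glutamate takes part in the cut. In the longest coding sequence of each gene in the GENCODE M21 annotation (mm10), this pattern was found in 62 of the 85 rows and in 37 of the 50 tested. Of the 85 rows 1, a second identifier of Mmp27, had no coding sequence to search. It was in 11 of the 16 genes that changed. The sites below are coding bases of the changed proteases other than Adamts19, whose sequence is not shown, and are given because the catalytic members share them beyond their names. Capitals mark the codons of the 3 histidines and the glutamate, and each line spans the 11 codons of the site.
Mmp2: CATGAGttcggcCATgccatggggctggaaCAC
Mmp14: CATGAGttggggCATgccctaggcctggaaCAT
Mmp16: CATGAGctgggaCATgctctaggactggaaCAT
Mmp23: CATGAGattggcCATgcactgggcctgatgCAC
Adam9: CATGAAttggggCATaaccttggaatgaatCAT
Adamts1: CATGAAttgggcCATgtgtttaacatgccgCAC
Adamts4: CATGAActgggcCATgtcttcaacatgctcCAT
Adamts5: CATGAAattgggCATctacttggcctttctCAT
Adamts2: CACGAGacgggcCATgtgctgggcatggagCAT
Adamts3: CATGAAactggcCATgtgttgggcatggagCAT
Adam23, Adamtsl2, Adamtsl3 and Adamtsl5, which also changed, do not hold the pattern, and neither does Timp4.

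TIMPs place the first stretch of their mature chain, which starts with a cysteine, 1 residue and another cysteine, into the active site of the protease. All 4 inhibitor genes hold it, given here with both cysteine codons in capitals, because it is the part that meets the protease.
Timp1: TGTagcTGTgccccaccccacccacag
Timp2: TGCagcTGCtccccggtgcacccgcaa
Timp3: TGCacaTGCtctcccagccatccccag
Timp4: TGCagcTGTgcgcctgcgcacccccag

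Of the 50 tested genes, 13 rose and 3 fell in the knockouts (limma with Benjamini-Hochberg adjustment over all genes, adjusted p under 0.05). The 13 that rose were Mmp2, Mmp14, Mmp16, Mmp23, Adam9, Adam23, Adamts1, Adamts2, Adamts4, Adamts5, Adamts19, Adamtsl2 and Adamtsl5. Of these 13, Mmp14, Mmp23, Adam9, Adam23, Adamts2, Adamts5 and Adamts19 stayed called in all 15 alternative fits. Among genes for versican-cutting proteases, Adamts1, Adamts4 and Adamts5 rose, while Adamts9 was not called. The 3 that fell were Timp4, Adamts3 and Adamtsl3. Over all 15556 genes tested, 8.61% rose and 8.56% fell, 17.2% in all, against 26% and 6%, 32% in all, of these 50 genes. The median log2 change was 0.27 over the 50 genes and 0.00 over all genes. Most changes were modest, and 3 of the 16 reached 1 on the log2 scale. The 2 groups of hearts did not overlap in any of the 16 genes, which adds little to the calls, since a call needs groups that lie apart. Such a split was seen in 23 of the 50 genes (46%) and in 35.4% of all genes tested. Its share among all called genes was not computed. Without knockout replicate 2 the number of these genes called was 9, of which 7 rose, beside 8.39% of all genes called in that fit. Without any other single heart it was 11 to 19, beside 10.7% to 15.2% of all genes. In these whole hearts a difference in the number of cells of a type and a difference in RNA per cell cannot be told apart. The controls are described as littermates, but which hearts share a litter, or whether any sample pools embryos, is not stated, so p-values measure only the spread between these samples.

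**Figure D1:**
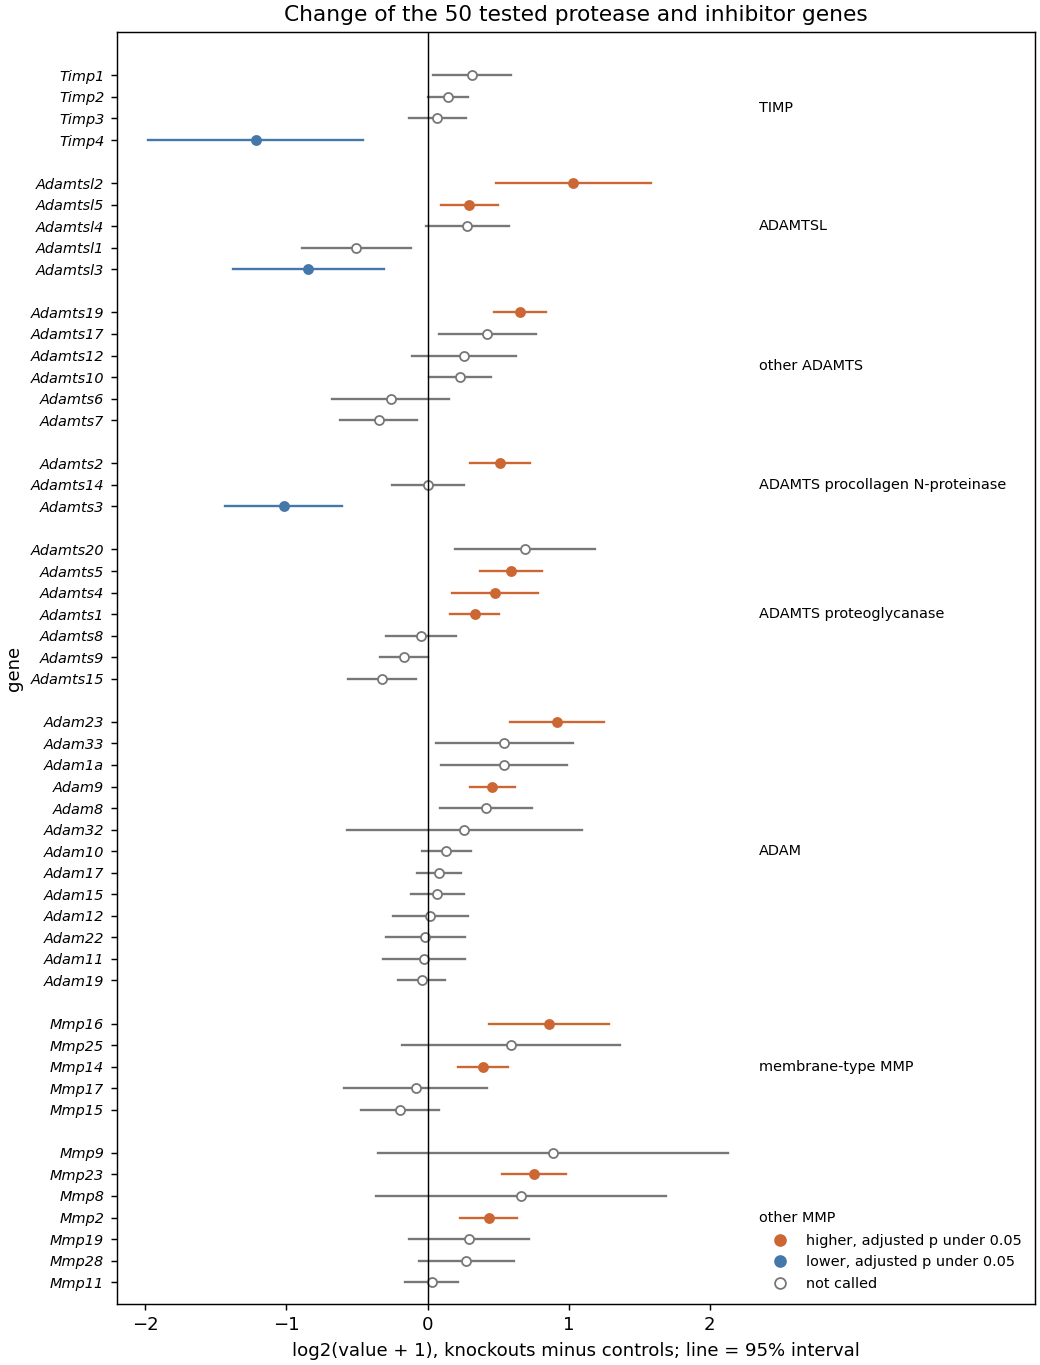
Change of each of the 50 tested genes, knockouts minus controls, on the log2(value + 1) scale, with its 95% interval and grouped by family. Filled points passed an adjusted p of 0.05, 13 to the right of 0 and 3 to the left.

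Among the MMPs that are not membrane-type, 2 of 7 rose and 0 fell (28.6% called, against 17.2% of all genes), and all 7 changes were above 0. Mmp2 (ENSMUSG00000031740; mm10 chromosome 8, 92827291 to 92853420, plus strand) encodes gelatinase A, which cuts denatured collagen and basement membrane collagen. It was at 2849, 2531 and 3095 in controls 1 to 3, against 3420, 3974 and 4037 in knockouts 1 to 3. Each knockout lay above the highest control, and Mmp2 rose by 0.43 in log2 (SE 0.09, limma adjusted p = 0.0104). Over the 15 alternatives its adjusted p ranged from 0.00404 to 0.0539, the highest without knockout replicate 2. Mmp23 (ENSMUSG00000029061; chromosome 4, 155650655 to 155653384, minus strand) encodes an unusual MMP that is anchored by its amino end until it is cut loose. Its values were 453, 491 and 519 (controls) against 721, 836 and 924 (knockouts), with means of 488 ± 33.1 against 827 ± 102 (SD, n = 3 each). The rise was 0.76 (SE 0.10, limma adjusted p = 0.00152), and it was called in every alternative run.

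The other 5 genes of this group were not called, with adjusted p from 0.242 to 0.855. They are Mmp11, Mmp19, Mmp28 and a pair of genes typical of blood leukocytes, Mmp8 and Mmp9. Mmp9, gelatinase B, was near the lower limit of the test, at 2, 8 and 13 (controls) against 13, 8 and 18 (knockouts). Its 95% interval ran from -0.35 to 2.13 on the log2 scale, so its direction was not resolved.

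Of the 5 tested membrane-type MMP genes 2 rose and 0 fell (40% called, against 17.2% of all genes). Mmp14 (ENSMUSG00000000957; chromosome 14, 54431612 to 54445364, plus strand) encodes MT1-MMP, which cuts fibrillar collagen at the cell surface and, with TIMP2 as a bridge, activates pro-MMP2. It was at 2542, 2497 and 2944 (controls) against 3337, 3421 and 3719 (knockouts), with no overlap. Mmp14 rose by 0.39 (SE 0.08, limma adjusted p = 0.00849) and kept its call in all 15 alternatives. Mmp16 (ENSMUSG00000028226; chromosome 4, 17852893 to 18119145, plus strand), which encodes MT3-MMP, was low, at 66, 46 and 46 (controls) against 105, 98 and 83 (knockouts). Mmp16 rose by 0.86 (SE 0.19, limma adjusted p = 0.0134). Without control replicate 3 its adjusted p was 0.0515 and without knockout replicate 2 it was 0.0541, in a range from 0.00885 over the alternatives.

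Mmp15, MT2-MMP, had the highest mean over the 6 hearts of all 85 genes before scaling by length, at 4128, 5170 and 5593 (controls) against 4006, 3919 and 5077 (knockouts). The groups overlapped, and the log2 difference was -0.19 (95% interval -0.47 to 0.08, limma adjusted p = 0.321). Mmp17 and Mmp25 were not called either.

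Among 13 tested ADAM genes 2 rose and 0 fell, 15.4% called against 17.2% of all genes. Adam9 (ENSMUSG00000031555; chromosome 8, 24949611 to 25016927, minus strand) encodes a membrane protease that sheds growth factor precursors and binds integrins. Its values were 2077, 2256 and 2030 (controls) against 2876, 3110 and 2757 (knockouts). All 3 knockouts stood above all 3 controls, the log2 rise was 0.46 (SE 0.07, limma adjusted p = 0.00266), and the call held in every alternative run. Adam23 (ENSMUSG00000025964; chromosome 1, 63445891 to 63596276, plus strand) encodes an ADAM without the zinc site that acts in cell adhesion. It was at 74, 77 and 80 (controls) against 127, 171 and 144 (knockouts), and rose by 0.92 (SE 0.15, limma adjusted p = 0.00315), again in every alternative.

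Neither of the main sheddase genes was called. Adam10, whose product makes the first cut in activated Notch receptors, was at 2963, 2671 and 2491 (controls) against 2952, 3126 and 2812 (knockouts). The log2 difference was 0.13 (95% interval -0.04 to 0.30, limma adjusted p = 0.276). Adam17, which encodes the enzyme that releases tumour necrosis factor and ligands of the epidermal growth factor receptor, was at 1098, 1110 and 1027 (controls) against 1143, 1084 and 1190 (knockouts). Its difference was 0.08 (95% interval -0.08 to 0.24, limma adjusted p = 0.486). Both intervals reach no further than 0.30, which places an upper limit on a rise. Adam19, with a known role in the heart's endocardial cushions, had a difference of -0.04 (SE 0.07). The other 8 uncalled genes were Adam1a, Adam8, Adam11, Adam12, Adam15, Adam22, Adam32 and Adam33. Adam1a shares 7432 of its exon bases with neighbouring genes, so its value is uncertain.

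Of 7 ADAMTS genes whose products cut large proteoglycans 3 rose and 0 fell (42.9% called, against 17.2% of all genes). Adamts1 (ENSMUSG00000022893; chromosome 16, 85793827 to 85803113, minus strand), which encodes a protease of versican and aggrecan, was at 1473, 1372 and 1241 (controls) against 1667, 1670 and 1809 (knockouts). It rose by 0.34 (SE 0.08, limma adjusted p = 0.0169). The adjusted p was 0.058 without control replicate 3, 0.0549 without knockout replicate 2 and 0.0583 without knockout replicate 3, in a range from 0.0117. Adamts5 (ENSMUSG00000022894; chromosome 16, 85856173 to 85901828, minus strand), an aggrecanase gene whose product also cuts versican, was at 290, 288 and 330 (controls) against 419, 487 and 465 (knockouts). Adamts5 rose by 0.59 (SE 0.10, limma adjusted p = 0.00373) and was called in all 15 alternatives.

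Adamts4 (ENSMUSG00000006403; chromosome 1, 171250421 to 171260637, plus strand), the other main aggrecanase gene, was at 133, 170 and 184 (controls) against 218, 220 and 235 (knockouts). Its rise of 0.48 (SE 0.14, limma adjusted p = 0.0381) was the least stable of the 3, since the call was lost without any 1 heart except control replicate 3, with adjusted p up to 0.105 and down to 0.0237 over the alternatives.

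Adamts9, which encodes a versican protease needed in heart development, was not called. It was at 1434, 1318 and 1340 (controls) against 1171, 1323 and 1157 (knockouts), with a log2 difference of -0.17 (95% interval -0.33 to 0.00, limma adjusted p = 0.165). Adamts8, Adamts15 and Adamts20 were not called. Values of Adamts15 were 377, 330 and 326 (controls) against 306, 255 and 264 (knockouts), lower in each knockout with an adjusted p of 0.0668. Values of Adamts20 were 53, 31 and 34 against 64, 62 and 61, with an adjusted p of 0.0587.

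The 3 procollagen N-proteinase genes went different ways. These enzymes remove the amino propeptide of fibrillar procollagens before fibrils form. Adamts2 (ENSMUSG00000036545; chromosome 11, 50602084 to 50807573, plus strand) was at 556, 511 and 600 (controls) against 751, 882 and 748 (knockouts), and rose by 0.51 (SE 0.09, limma adjusted p = 0.00595). Adamts3 (ENSMUSG00000043635; chromosome 5, 89677087 to 89883334, minus strand), whose product also activates the lymphatic growth factor VEGF-C, was at 98, 70 and 78 (controls) against 40, 36 and 43 (knockouts). It fell by 1.02 in log2 (SE 0.19, limma adjusted p = 0.00565), from a mean of 82 ± 14.4 to 39.7 ± 3.51 (SD, n = 3 each). Both calls held in every alternative run. Adamts14 was at 280, 242 and 302 (controls) against 256, 272 and 296 (knockouts), a difference of 0.00 (SE 0.11).

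Among the other 6 ADAMTS genes 1 rose (16.7%, against 17.2% of all genes called), Adamts19 (ENSMUSG00000053441; chromosome 18, 58836667 to 59054060, plus strand), a gene with a known role in the heart valves. Its values were 773, 848 and 717 (controls) against 1246, 1279 and 1157 (knockouts), with means of 779 ± 65.7 against 1227 ± 63.1 (SD, n = 3 each). The groups did not overlap, the rise was 0.66 (SE 0.08, limma adjusted p = 0.0011), the lowest adjusted p of all members, and the call held in every alternative run. Adamts6, Adamts7, Adamts10, Adamts12 and Adamts17 were not called, with adjusted p from 0.0816 to 0.372.

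Of the 5 ADAMTS-like genes 2 rose and 1 fell (60% called, against 17.2% of all genes). Adamtsl2 (ENSMUSG00000036040; chromosome 2, 27079379 to 27108981, plus strand) encodes a secreted protein that binds fibrillin-1 and the latent TGF-beta binding protein LTBP1. It was even in the controls, at 358, 388 and 386, and uneven in the knockouts, at 463, 1050 and 947. The mean went from 377 ± 16.8 to 820 ± 313 (SD, n = 3 each), a log2 rise of 1.03 (SE 0.25, limma adjusted p = 0.0184); it was the largest rise among the 13. The rise was 1.40 without knockout replicate 1, 0.81 without knockout replicate 2 and 0.89 without knockout replicate 3. The call was lost without control replicate 1 or 3 or knockout replicate 2 or 3 and with no filter on low values, with adjusted p from 0.0524 to 0.0714 in a range from 0.000163.

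Adamtsl5 (ENSMUSG00000043822; chromosome 10, 80339110 to 80348412, minus strand), which also binds fibrillin, was at 693, 823 and 852 (controls) against 929, 1002 and 969 (knockouts). Its rise of 0.30 (SE 0.09, limma adjusted p = 0.0461) was near the threshold and was lost without any 1 heart except control replicate 3, with adjusted p up to 0.162 and down to 0.0159 over the alternatives. Adamtsl3 (ENSMUSG00000070469; chromosome 7, 82335694 to 82614450, plus strand) was at 138, 113 and 131 (controls) against 95, 79 and 46 (knockouts), and fell by 0.84 (SE 0.24, limma adjusted p = 0.0376). Without knockout replicate 3, the lowest heart, the fall was 0.55, and the call was lost without any 1 heart except knockout replicate 1, with adjusted p from 0.0648 to 0.107 in a range from 0.0138. Adamtsl1 and Adamtsl4 were not called.

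Of the 4 inhibitor genes 0 rose and 1 fell (25% called, against 17.2% of all genes). Timp4 (ENSMUSG00000030317; chromosome 6, 115241892 to 115252205, minus strand), the TIMP known for its expression in heart muscle, was at 24, 28 and 44 (controls) against 15, 17 and 8 (knockouts). It fell by 1.22 in log2 (SE 0.34, limma adjusted p = 0.0364) from a low level, where counting error is large. The adjusted p was 0.0753 without control replicate 2, 0.13 without control replicate 3 and 0.0988 without knockout replicate 3, in a range from 0.0246. It was 0.0903 with no filter on low values and 0.0756 with embryo sex as a term.

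Timp2, the most abundant inhibitor, was at 3283, 3365 and 3607 (controls) against 3626, 3855 and 3835 (knockouts). The knockouts lay just above the controls, by 0.14 on the log2 scale (95% interval 0.00 to 0.28), and the gene was not called (limma adjusted p = 0.156). Timp3, which binds to the matrix and blocks ADAM17 as well as MMPs, was at 2383, 1915 and 1936 (controls) against 2151, 2299 and 2068 (knockouts), a difference of 0.07 (95% interval -0.13 to 0.27, limma adjusted p = 0.643). Timp1 was at 139, 127 and 149 (controls) against 158, 184 and 175 (knockouts), a difference of 0.32 (95% interval 0.04 to 0.59, limma adjusted p = 0.109). The intervals of Timp2 and Timp3 reached up to 0.28 and 0.27, the Mmp2 interval ran from 0.23 to 0.63 and that of Mmp14 from 0.22 to 0.57. Timp3 shares 1733 exon bases with Syn3 and Timp4 90 with Syn2, each on the opposite strand, and the sources used here do not state whether counting used strand. Whether the change of a protease differed from that of an inhibitor was not tested.

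**Figure D2:**
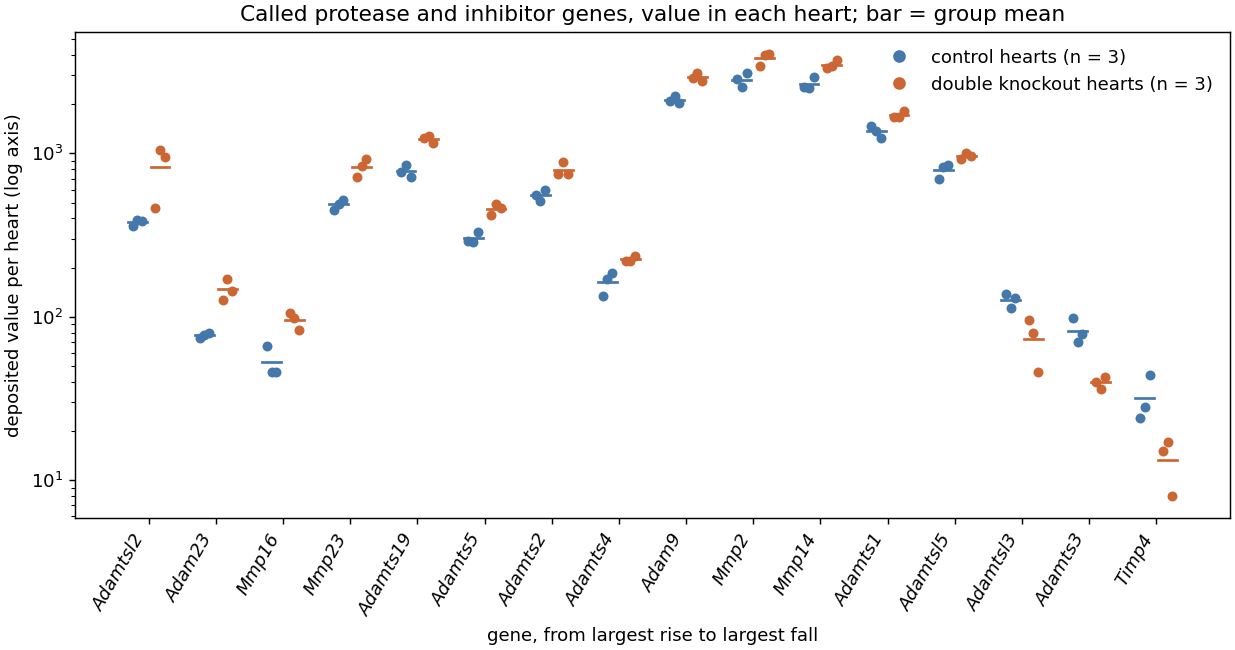
Deposited value of each called gene in each of the 6 hearts, on a log axis, with a bar at each group mean. In all 16 genes the 3 knockout hearts lie on 1 side of the 3 control hearts, and Adamtsl2 is the most spread, with knockout replicate 1 at 463 beside 1050 and 947.

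Levels of different genes were compared per kb of exon. On this scale the highest control levels were those of Mmp15 at 920 units per kb, Timp2 at 877 and Mmp2 at 838, followed by Adam10 at 551, Adam9 at 515 and Mmp14 at 446. In the knockouts the order of the first 3 was Mmp2 at 1130, Timp2 at 968 and Mmp15 at 803. The levels of Mmp15, Timp2 and Mmp2 in the controls lie within about their spread over hearts, so their order there is not resolved. Changed genes ranged in the controls from Mmp2 down to Adam23 at rank 48 of 50 (rank 41 in the knockouts), and Timp4 went from 5.43 to 2.26 units per kb. Adamtsl2 went from rank 26 of 50 to rank 19, and Adamts3 from rank 37 to rank 44.

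**Figure D3:**
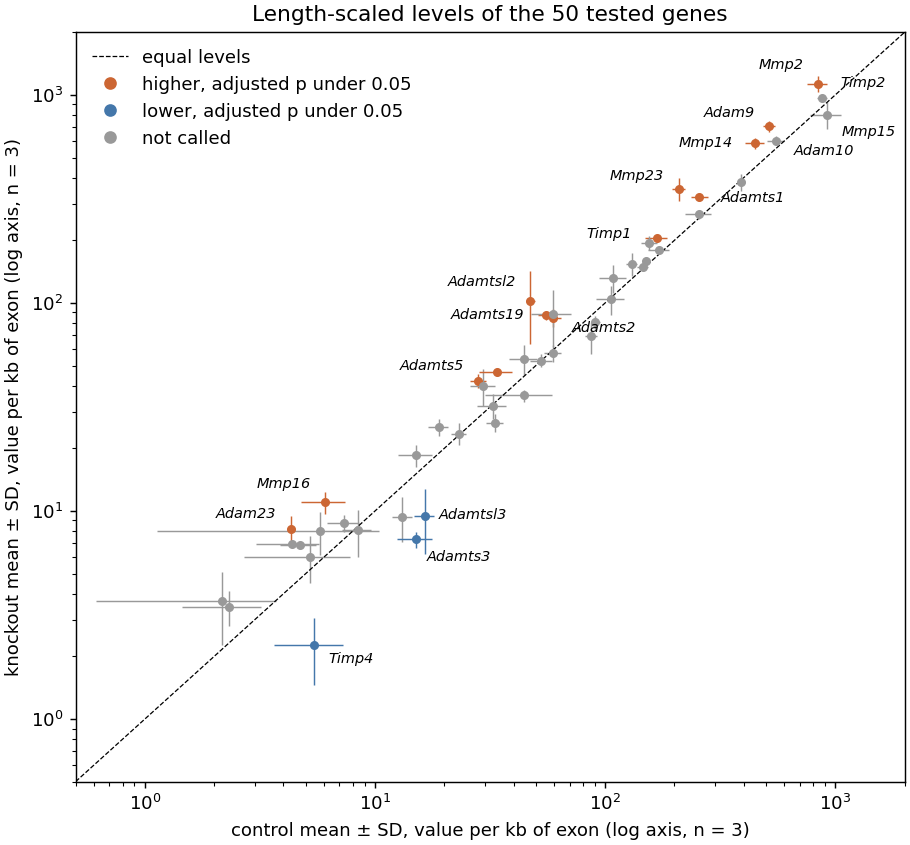
Mean level per kb of exon in the control hearts against that in the knockout hearts for the 50 tested genes, both axes log, with the SD over 3 hearts on each axis. Mmp2, Adam9 and Mmp14 lie above the line of equal levels near the top, and Adamts3, Adamtsl3 and Timp4 lie below it at low levels.

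Marker sums of several cell types other than cardiomyocytes were higher in the knockouts, the erythroid sum was lower, and the neural crest and Schwann sums overlapped. Summed fibroblast and cushion mesenchyme markers were 91191 to 106155 in the controls and 118866 to 148923 in the knockouts. Most of this sum came from matrix genes, with means over the 6 hearts of 42180 (Col3a1), 24597 (Postn), 20620 (Col1a2) and 20564 (Col1a1). The means of Pdgfra, Lum and Tcf21 were 1139.5, 1836 and 804. Of the 8 fibroblast and cushion mesenchyme markers 4 rose, Tcf21 among them, while Pdgfra and Col1a1 were not called. The endothelial and endocardial sum was 19427 to 19655 against 22455 to 24807, with 4 of 8 rising. Emcn, Npr3, Tek and Tie1 rose, while Pecam1, Cdh5, Kdr and Flt1 were not called. The log2 changes of these markers ranged from 0.00 (Cdh5) to 0.95 (Npr3). Macrophage and leukocyte markers summed to 1177 to 1305 against 1716 to 2534, with 6 of 8 rising. Over all genes tested, 8.61% rose. No list had a member at 0 in all hearts. The epicardial sum was 3868 to 4186 against 4353 to 4841 and the mural sum 12604 to 13788 against 14514 to 16204, and none of the 7 and 6 markers was called. The erythroid sum was 19565 to 34042 against 14408 to 19016 and the neural crest and Schwann sum 573 to 668 against 495 to 669, also with none called. Among cardiomyocyte markers 1 of 8, Actn2, fell (12.5%, against 8.56% of all genes). Median log2 changes were 0.38 for fibroblast, 0.29 for endothelial and 0.87 for macrophage markers, beside 0.27 for the 50 protease and inhibitor genes. They were 0.25 for mural, 0.22 for epicardial, -0.06 for neural crest and Schwann, -0.16 for cardiomyocyte and -0.58 for erythroid markers. In 9 of the 13 genes that rose, knockout replicate 1 was the lowest of the knockouts. How often this held over all genes that rose was not counted. That heart also had the lowest fibroblast, endothelial, macrophage, epicardial, mural and neural crest and Schwann sums of the knockouts, and the highest cardiomyocyte sum. The part of these cell types in the changes of the protease genes was not tested.

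**Figure D4:**
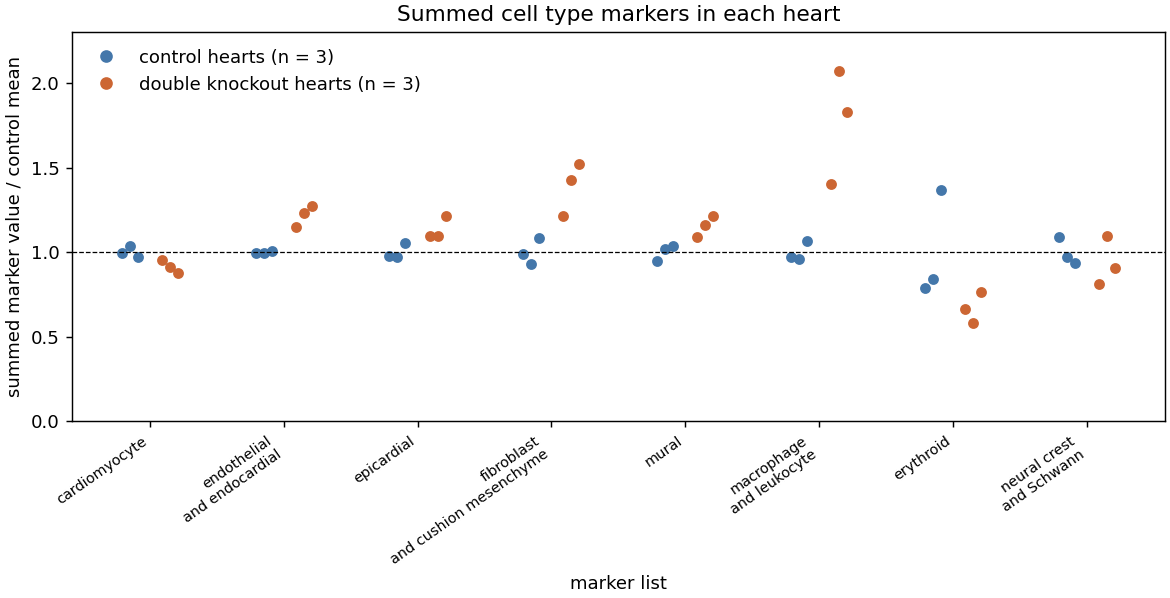
Sum of the markers of each cell type in each heart, divided by the mean of the controls. The macrophage, fibroblast and endothelial sums are higher in all 3 knockout hearts than in any control, and the cardiomyocyte sum is lower.

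Substrates and partners of the proteases were taken from 4 lists of genes. In the order given below, their tested genes had median levels of 5867, 426, 384 and 823 units, beside 410 over all genes tested. Of 37 tested genes of matrix proteins that these enzymes cut, 19 rose and 1 fell, 54.1% in all against 17.2% of all genes. Vcan is the versican gene, whose product ADAMTS1, ADAMTS4, ADAMTS5 and ADAMTS9 can cut. Vcan was at 4514, 4837 and 3889 (controls) against 8048, 9033 and 8217 (knockouts), and rose by 0.94 (SE 0.09, limma adjusted p = 0.000351). Fbn1 and Fbn2, the microfibril proteins to which ADAMTS-like proteins bind, rose by 0.65 and 0.58 (SE 0.08 each), and Tnc, tenascin-C, rose by 0.79 (SE 0.11). The 1 that fell was Col15a1, by 0.66 (SE 0.12). These hearts also had higher fibroblast marker sums, and that marker list shares Col1a1, Col1a2, Col3a1, Dcn and Postn with the list of substrates. These shared genes make up most of the fibroblast sum, so it is not a readout separate from the matrix genes.

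Of 34 activators, co-receptors and other regulators, 10 rose and 1 fell, 32.4% in all against 17.2% of all genes. Itgav, the integrin alpha-V subunit that can hold MMP2 at the cell surface, was at 848, 921 and 697 (controls) against 2262, 2776 and 2707 (knockouts), a log2 rise of 1.65 (SE 0.11). Sdc4, a heparan sulfate proteoglycan, was at 327, 389 and 346 against 996, 1541 and 1509, a rise of 1.90 (SE 0.15). Cd44, a hyaluronan receptor that docks MMPs, rose by 0.88 (SE 0.10) and Thbs1, thrombospondin-1, which is also among the matrix genes above, by 0.77 (SE 0.11). Reck, a membrane-anchored inhibitor of MMPs that was chosen for mention after its values were seen, was at 343, 321 and 347 (controls) against 452, 532 and 517 (knockouts) (log2 change 0.57, SE 0.09, limma adjusted p = 0.00356). The 1 that fell was Cav1, by 0.24 (SE 0.07).

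Other secreted matrix-modifying proteases and their helpers rose in 14 of 28 cases and fell in 0, 50% called against 17.2% of all genes. Ctss, the cathepsin S gene typical of macrophages, was at 107, 114 and 142 (controls) against 219, 385 and 355 (knockouts), a rise of 1.36 (SE 0.20), in the same hearts in which macrophage markers were higher. Lox, which crosslinks collagen and elastin, rose by 0.87 (SE 0.14), Ece1, the endothelin-converting enzyme gene, by 0.66 (SE 0.10) and Ctsk, a collagen-cutting cathepsin gene, by 0.59 (SE 0.10).

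Among 28 cell-surface substrates of ADAM10 and ADAM17, 11 rose and 2 fell, 46.4% in all against 17.2% of all genes. Neither of these sheddase genes was called. Beside Sdc4 and Cd44, Nrg1, which encodes the growth factor neuregulin 1, was low, at 5, 12 and 7 (controls) against 35, 45 and 48 (knockouts), and rose by 2.34 (SE 0.33). Aplp2, a relative of the amyloid precursor, rose by 0.46 (SE 0.06). The 2 that fell were Notch2, by 0.31 (SE 0.08), and Cx3cl1, by 0.59 (SE 0.18).

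Promoter windows, from 250 bases before to 50 bases after a RefSeq start on GRCm38.p6, were found for 31 of the 50 tested genes and for 10 of the 16 that changed. Motifs were searched on both strands, in any window of a gene with several starts, and the shares are of all 27025 genes with a window. The 31 genes are protein-coding and had passed the filter on the mean, whereas the 27025 were not filtered. The shares below therefore compare unlike sets. The GC box GGGCGG was in 24 of the 31 genes (77.4%) and in 38.2% of all genes. The AP-1 motif TGANTCA was in 1 (3.23%, against 8.97%), the ETS motif CCGGAA in 3 (9.68%, against 16.7%), TATAAA in 3 (9.68%, against 15.7%) and the CArG box, to which serum response factor binds, in 0 (against 1.81%). Of the 10 changed genes 8 held the GC box and 2 held TATAAA, Adamts1 and Adamtsl2. The windows of Mmp14 and Adamts1, which rose, and of Adamts3, which fell, are shown because they share the GC box while the genes moved in different directions. Capitals mark the motif matches, overlapping ones merged.
Mmp14, chr14:54431348-54431647, plus strand: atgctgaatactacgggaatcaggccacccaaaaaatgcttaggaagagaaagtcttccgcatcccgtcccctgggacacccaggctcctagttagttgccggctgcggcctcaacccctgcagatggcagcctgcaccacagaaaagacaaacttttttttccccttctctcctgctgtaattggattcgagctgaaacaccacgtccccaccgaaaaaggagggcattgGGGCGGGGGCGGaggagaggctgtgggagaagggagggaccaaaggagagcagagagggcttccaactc
Adamts1, chr16:85803064-85803363, minus strand: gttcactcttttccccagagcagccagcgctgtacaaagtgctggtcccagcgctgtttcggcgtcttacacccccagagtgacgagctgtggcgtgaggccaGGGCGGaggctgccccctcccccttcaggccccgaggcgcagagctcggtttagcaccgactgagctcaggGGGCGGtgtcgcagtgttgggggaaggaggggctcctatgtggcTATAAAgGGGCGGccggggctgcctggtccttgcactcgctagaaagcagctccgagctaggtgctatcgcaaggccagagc
Adamts3, chr5:89883285-89883584, minus strand: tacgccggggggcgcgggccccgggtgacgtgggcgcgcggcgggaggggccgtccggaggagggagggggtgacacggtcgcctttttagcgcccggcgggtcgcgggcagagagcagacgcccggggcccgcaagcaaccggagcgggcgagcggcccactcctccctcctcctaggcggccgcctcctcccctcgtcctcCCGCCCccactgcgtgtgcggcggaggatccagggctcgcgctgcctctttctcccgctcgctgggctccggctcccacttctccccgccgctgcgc
A match says only that these letters are present and is not evidence of a bound site.

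The remaining 35 genes had a mean under 10 and were not tested: 20 ADAM, 12 MMP and 3 ADAMTS genes. Of these, 18 were at 0 in all 6 hearts and 17 had a value above 0 in at least 1 heart, none above 12. The highest mean was that of Adam4, at 11, 12 and 7 (controls) against 8, 8 and 10 (knockouts). Mmp13, a collagenase gene, was at 6, 4 and 6 (controls) against 8, 12 and 10 (knockouts). Mmp12, the macrophage elastase gene, was at 11, 10 and 1 (controls) against 1, 4 and 3 (knockouts). Mmp3, Mmp7, Mmp10, Mmp20 and the interstitial collagenase genes Mmp1a and Mmp1b were at 0 or 1 throughout, so none of them was detectable above 1 at this depth.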

How the data were processed

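Per the labels, poly(A) RNA of 6 embryonic hearts was sequenced from stranded libraries as paired ends of 75 bases. The submitters' processing notes name Trimmomatic, STAR 2.4.2a, featureCounts 1.5.0, DESeq and DESeq2, and build mm10, without their roles. The deposited values are treated as a score: by the pattern of the values, the authors had scaled whole reads by 1 factor per heart and rounded the result. The step between low values (up to 150) gave estimated reads. Because the values are not counts, no count test was used for the main calls, and limma-voom on the estimated reads was among the alternatives.

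Genes with a mean of at least 10 were tested with limma 3.58.1 in R 4.3.3 (variance trend, group only) on log2(value + 1), which understates changes of low genes, with Benjamini-Hochberg adjustment over 15556 genes. On simulated data of this comparison (15550 genes, 99 changed per fold), limma recovered 91.9% of 2-fold and 73.7% of 1.5-fold changes and made 6 false calls, under an assumed spread.

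Given by rule with values in every heart were all called members and, whatever they did, Timp1 to Timp4, Mmp2, Mmp14, Adam10, Adam17, Adamts1, Adamts5 and Adamts9. Of each of the 4 pathway lists up to 4 called genes with the smallest p were named, and marker lists were given by counts, sums and medians. Single markers were named beyond that rule. Chosen after their values were seen were the values printed for Mmp9, Mmp12, Mmp13, Mmp15, Adam4, Adam19, Adamts14, Adamts15, Adamts20, Reck and the list genes that fell. The members and lists were chosen with earlier results of these data known. Of 182 list symbols 181 were matched. Of 45706 gene identifiers 45143 were found in GENCODE M21 (mm10), which gave positions, exon lengths and coding sequences. Promoters came from RefSeq (GRCm38.p6). Alternatives were pseudocounts of 0.1 and 10, no filter, a mean of at least 50, equal totals, quantile normalization, the replicate number as a block, limma-voom on estimated reads and leaving out each heart. Embryo sex as a term was added after seeing the data. No pair of replicates was alike enough to be 1 library entered under 2 names.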

Additional observations from a re-analysis of the deposited data

How the results depend on the processing

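Of the 16 calls, 8 held in all 15 alternatives (Mmp14, Mmp23, Adam9, Adam23, Adamts2, Adamts3, Adamts5 and Adamts19), and the other 8 were lost in at least 1. None of the 22 members named by rule changed direction in any alternative. The number of called genes was 9 to 19 when 1 heart was left out, with 7 to 15 rising and 1 to 4 falling, and the share of all genes called in those fits was 8.39% to 15.2%. With no filter on low values 1 fell, and Adamts4, Adamtsl2, Adamtsl3, Adamtsl5 and Timp4 lost their calls (6.5% of all genes called). With embryo sex as a term 1 fell, and Adamts4, Adamtsl3, Adamtsl5 and Timp4 lost theirs (13.4% of all genes called). Sex was read from Xist and Y-linked genes, 2 of 3 controls and 1 of 3 knockouts having the female pattern, and the sex term left 12 calls. With the replicate block 23 genes were called, 17 rising and 6 falling, and all 16 were among them, while 22.7% of all genes were called, against 17.2% without it. Deviations from the group means correlated at -0.04, -0.37 and 0.05 across genes in same-numbered hearts. In differently numbered hearts they correlated at -0.25 to 0.27. With 3 hearts in each group, such values cannot settle whether the numbers pair the hearts. Causes of these differences were not tested. At a mean near 10 a single gene rests on few reads, as for Mmp9.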

Other observations

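Members that lie next to each other in the genome did not all behave alike. Adamts1 and Adamts5 are 53.1 kb apart on chromosome 16, on the same strand, and both rose. Adamts8 and Adamts15 are 20.1 kb apart on chromosome 9 and neither was called. On chromosome 8, Adam9 rose at a mean of 2518 while Adam32, 0.8 kb away, had a mean of 16.8 and was not called. The cluster of 10 MMP genes on chromosome 9 (mm10, 7272514 to 7699585) spans 427.1 kb, and 1 of the 10, Mmp8, had a mean of at least 10.

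In 7 further genes the groups did not overlap although the test was not passed: Timp1, Timp2, Adam1a, Adam8, Adamts17 and Adamts20 were higher in each knockout, and Adamts15 was lower. Such a split, called or not, was seen in 46% of the 50 genes and in 35.4% of all genes tested. Its share among all uncalled genes was not computed.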
